A study of Homo sapiens with 2 samples.

Results

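The HOX cluster genes were the 39 of 36601 gene entries whose name is HOXA, HOXB, HOXC or HOXD followed by digits alone, so that antisense entries were left out. To them were added the 60 of 187920 ATAC peaks that lay within 2 kb of the interval the files give for a HOX gene. That interval spans transcription starts of the gene in the annotation of the files. Some RefSeq starts, as for HOXA3, HOXC5 and HOXD3, lie outside it, so peaks at such starts may be missed. Membership used names and positions only and no measured value. A549, HCC827, H2228, H1975 and H838, which are established human lines of lung adenocarcinoma, had been cultured separately, frozen, mixed at equal shares and captured in 1 tube. From 80% of that capture came 1 RNA library and 1 ATAC library with shared barcodes. No agent was given to any line. Each line is a single culture and each library a single one, so no test could be made, and every interval given is a 95% counting interval that carries no biological spread.

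HOX genes encode homeodomain transcription factors, and they lie in 4 clusters on different chromosomes. Within a cluster the genes are numbered by paralog group, and their order along the chromosome follows the order in which they are used from head to tail of the embryo. Low-numbered (anterior) members respond to retinoic acid, Polycomb complexes keep the clusters silent where they are not used, and MLL complexes keep used members active. In the developing lung, members of the middle groups, HOXA5 and HOXB5 among them, take part in airway patterning and branching.

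The 5 lines were told apart by marker genes in 2397 of 3298 barcodes, with the HOX clusters and 100 kb on either side left out of the clustering. Each line is called by a gene that marks it. The RBFOX3 line (742 barcodes) had all 7 A549 markers at their highest and is A549-like. The GRIA4 line (422 barcodes) had 5 of 6 HCC827 markers at their highest, EGFR among them, and is HCC827-like. The S100A9 line had 5 of 6 H2228 markers at their highest, but also 5 of 9 H838 markers, and 3 of 5 H1975 markers were highest in the GRIA4 line. The S100A9 (429), SLC30A8 (577) and DHRS2 (227 barcodes) lines were not settled by the markers of H2228, H1975 and H838, and they keep their gene names. Summed totals ran from 3218030 UMIs (unique molecular identifiers, 1 per captured RNA molecule) in the DHRS2 line to 7308520 in the S100A9 line, and from 7202459 to 22094248 peak counts. Levels are given as CPM, that is as counts scaled to a total of 1000000 in each line. The median mitochondrial share was 0.424% in the RBFOX3 line, 8.49% in the S100A9 line, 0.426% in the SLC30A8 line, 13.5% in the GRIA4 line and 6.06% in the DHRS2 line, and depth differed as well. With totals taken without mitochondrial UMIs, an alternative added after the data were seen, 9 members had a leading line and HOXB5 had none. The share of all genes with a leading line was then 20.85%. Markers of 1 line reached a median of 0.508% of their own level in the other lines. The same markers named the lines and served to remove mixed barcodes, so low values were partly set in advance. The 90th percentile was 3.49% and the highest value was 9.46%, for the gene S100A9. Whether such UMIs came from free RNA, mixed droplets or low expression was not tested. Markers of cells outside the lines summed to 13.5 to 66.2 CPM for 12 immune genes, 4.51 to 99.2 CPM for 8 endothelial genes (97.8 of it PECAM1 in the S100A9 line), 6.44 to 140 CPM for 6 fibroblast genes and 0 to 0.348 CPM for 5 red cell genes. PTPRC, which defines blood cells, was at 6.98 CPM in the S100A9 line and at most 0.696 CPM in the others.

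The promoters printed here belong to 4 genes beside the HOXA and HOXD peaks that differed most between the lines, and to HOXD11, which stands beside HOXD10. Each runs over the 250 bases before a RefSeq start (GRCh38.p14), 5′ to 3′ on the strand of the gene. For HOXD10 the start given in the files (176116579) lies inside the stretch. Capitals mark matches, on either strand, to any of 5 motifs, and overlapping matches run together. TATAAA is the TATA box, which sets the start of transcription where it is present, and CCAAT is bound by the factor NF-Y. The motif TGATTNAT is a joint site of PBX and HOX proteins. The core of a retinoic acid receptor site is AGGTCA. An E-box is spelled CACGTG.
HOXD13: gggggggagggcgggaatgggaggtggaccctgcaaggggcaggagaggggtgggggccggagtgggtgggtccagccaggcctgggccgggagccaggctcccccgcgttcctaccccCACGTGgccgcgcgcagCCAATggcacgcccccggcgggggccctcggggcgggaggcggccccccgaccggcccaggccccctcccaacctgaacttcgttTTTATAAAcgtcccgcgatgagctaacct
HOXD11: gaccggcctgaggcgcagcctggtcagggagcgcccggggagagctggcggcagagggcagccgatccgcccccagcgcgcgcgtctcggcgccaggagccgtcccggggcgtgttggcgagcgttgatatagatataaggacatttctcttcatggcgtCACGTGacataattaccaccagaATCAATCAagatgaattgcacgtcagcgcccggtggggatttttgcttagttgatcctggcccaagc
HOXD10: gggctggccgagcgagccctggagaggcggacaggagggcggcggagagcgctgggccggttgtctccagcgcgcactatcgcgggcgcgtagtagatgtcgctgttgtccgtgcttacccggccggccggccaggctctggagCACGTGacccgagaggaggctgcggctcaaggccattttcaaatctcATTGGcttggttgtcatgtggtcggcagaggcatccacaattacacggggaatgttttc
HOXA4: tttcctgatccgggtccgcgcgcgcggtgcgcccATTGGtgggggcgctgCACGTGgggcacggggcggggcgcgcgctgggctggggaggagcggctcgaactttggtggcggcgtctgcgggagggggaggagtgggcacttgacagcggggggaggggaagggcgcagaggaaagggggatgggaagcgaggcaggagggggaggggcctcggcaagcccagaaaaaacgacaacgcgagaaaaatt
HOXA7: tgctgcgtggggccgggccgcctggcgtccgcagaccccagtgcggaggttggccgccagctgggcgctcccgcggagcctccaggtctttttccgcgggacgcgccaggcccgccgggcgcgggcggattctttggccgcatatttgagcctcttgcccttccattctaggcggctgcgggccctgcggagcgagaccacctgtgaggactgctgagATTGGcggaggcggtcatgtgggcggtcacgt
They lie at chr2:176092471-176092720 (HOXD13), chr2:176107030-176107279 (HOXD11), chr2:176116528-176116777 (HOXD10), chr7:27130758-27131007 (HOXA4) and chr7:27156676-27156925 (HOXA7). A peak covered all 250 bases for HOXD11, HOXD10 and HOXA4, 150 bases for HOXA7 and 106 bases for HOXD13. The RefSeq promoters used here matched 20 of the 39 members with 26 entries, and HOXC4 and HOXC5 shared 1 of these sequences. Besides these and HOXB1 all matched members were HOXA and HOXD genes, so the shares that follow describe those clusters. CCAAT was found in 65.4% of the 26 entries and in 32.0% of all 34943 promoters. CACGTG stood in 30.8% of the HOX entries against 6.32%, TATAAA in 19.2% against 10.8%, and TGATTNAT in 7.69% against 2.49%. AGGTCA was in 0 of the 26, against 12.1% of all promoters. The median ratio of observed to expected CpG was 0.886 in the HOX entries and 0.556 in all promoters.

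HOX RNA was sparse, and 31 of the 39 members had at least 20 UMIs over the 5 lines and were counted as measured. Their totals ran from 21 to 504 UMIs. HOXB1 and HOXD12 had no UMI in any line, and HOXA4, HOXA7, HOXB13, HOXC5, HOXC12 and HOXD13 had between 4 and 11. Only 9 members reached 10 CPM in at least 1 line: HOXA3, HOXB2, HOXB3, HOXB5, HOXB6, HOXB7, HOXB8, HOXD9 and HOXD10. The heat map of HOX RNA shows these as short bright blocks within 3 of the clusters.

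**Figure D1:**
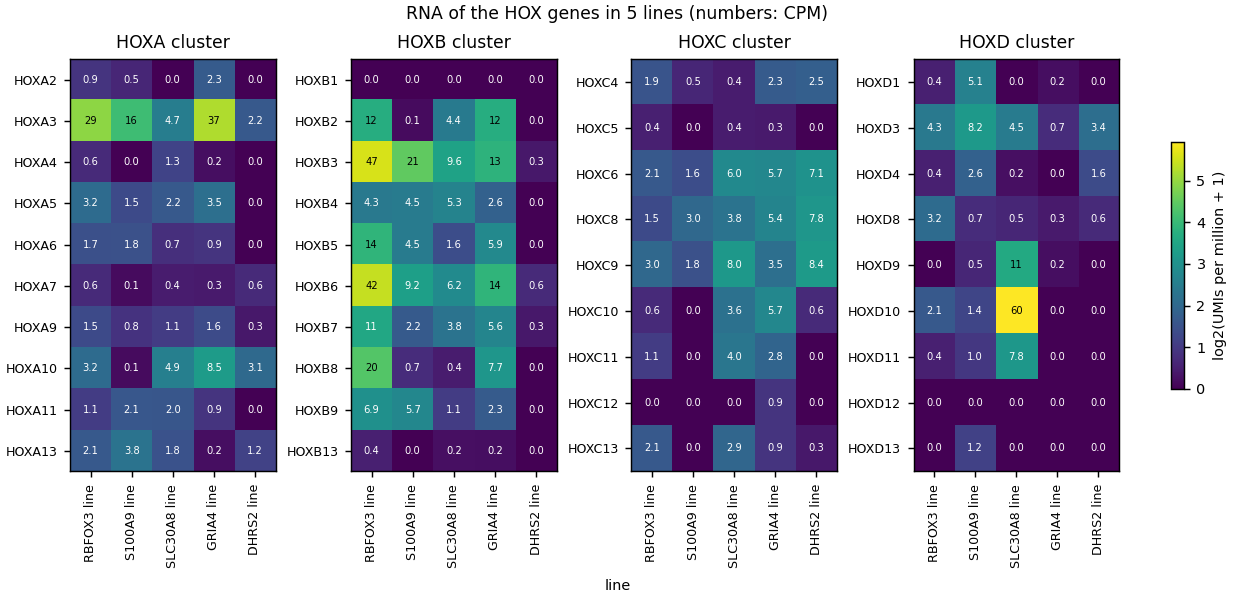
RNA of the HOX genes, 1 member left out (one panel per cluster, genes in paralog order down the vertical axis) in the 5 lines, with CPM written in each cell and colour on a log2(CPM + 1) scale. The HOXB block is brightest in the RBFOX3 line and nearly empty in the DHRS2 line, and HOXD9 to HOXD11 stand out in the SLC30A8 line, with HOXD10 at 60.4 CPM.

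A line was called leading for a gene when its CPM + 1 was at least 2-fold that of the next line. By this measure 10 of the 31 measured members had a leading line, beside 21.1% of all 19465 measured genes and 25% of the genes with totals in the members' range. The RBFOX3 line led HOXB3, HOXB5, HOXB6, HOXB8 and HOXD8, which is 5 members beside 5.09% of all genes. The SLC30A8 line led HOXD9, HOXD10 and HOXD11 (5.6% of all genes) and the S100A9 line HOXD1 (4.67%). No member was led by the DHRS2 line, which led 2.88% of all genes. Under TMM scaling, which compares lines after trimming the most different genes, 7 members kept a leading line, beside 20.6% of all genes. HOXB3, HOXB5 and HOXB8 lost theirs.

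The HOXB cluster on chromosome 17 had its RNA mainly in the RBFOX3 line. Its 10 genes summed to 156 CPM (145 to 168) there, to 63.3 CPM (57.0 to 70.2) in the GRIA4 line, to 48.3 CPM (43.4 to 53.6) in the S100A9 line and to 32.6 CPM (28.0 to 37.7) in the SLC30A8 line. The DHRS2 line held 4 HOXB UMIs, or 1.24 CPM (0.339 to 3.18). None of these 5 intervals overlapped its neighbour in the order of levels. The DHRS2 value was 0.795% of the RBFOX3 value. Line markers in other lines, pooled over markers and lines, had a median of 0.508% and a 90th percentile of 3.49%. These low values were partly set in advance, because the markers named the lines. The 6 markers of the RBFOX3 line summed to 2278 CPM there and 8.08 CPM in the DHRS2 line.

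Among anterior HOXB genes, HOXB2, which acts in the hindbrain, was at 12.0 CPM in both the RBFOX3 and GRIA4 lines, at 4.37 CPM in the SLC30A8 line, at 0.137 CPM in the S100A9 line and without a UMI in the DHRS2 line. The pair of high lines could not be told apart, and the S100A9 value came from 1 UMI. HOXB3 (ENSG00000120093, chr17:48553922-48590272) was at 46.8 CPM in the RBFOX3 line, 21.3 in the S100A9 line, 13.2 in the GRIA4 line, 9.65 in the SLC30A8 line and 0.311 in the DHRS2 line. The S100A9 line, nearly empty of HOXB2, thus ranked next to the RBFOX3 line for the neighbouring HOXB3, and the intervals of both lines stood clear of the others. HOXB4, known for its role in blood stem cells, gave a different picture: 4.30 CPM in the RBFOX3 line, 4.52 in the S100A9 line, 5.28 in the SLC30A8 line, 2.61 in the GRIA4 line and 0 in the DHRS2 line. The intervals of these first 4 lines overlapped.

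HOXB5, one of the lung patterning members, was at 13.7 CPM in the RBFOX3 line, 5.91 in the GRIA4 line, 4.52 in the S100A9 line, 1.64 in the SLC30A8 line and 0 in the DHRS2 line. HOXB6 was at 41.9 CPM in the RBFOX3 line, 13.9 in the GRIA4 line, 9.17 in the S100A9 line, 6.19 in the SLC30A8 line and 0.621 in the DHRS2 line. For both genes the interval of the RBFOX3 line lay above those of all other lines. HOXB7 was at 10.7 CPM in the RBFOX3 line, 5.57 in the GRIA4 line, 3.82 in the SLC30A8 line, 2.19 in the S100A9 line and 0.311 in the DHRS2 line. HOXB8 was at 19.5 CPM in the RBFOX3 line and 7.65 in the GRIA4 line, and at 0.684 in the S100A9 line, 0.364 in the SLC30A8 line and 0 in the DHRS2 line. HOXB8 therefore was a gene of 2 lines, and its values in the remaining 3 lines rested on at most 5 UMIs. HOXB9 was at 6.87 CPM in the RBFOX3 line, 5.75 in the S100A9 line, 2.26 in the GRIA4 line, 1.09 in the SLC30A8 line and 0 in the DHRS2 line. HOXB13, best known from the prostate, had 4 UMIs in all.

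The DHRS2 line was low across HOXB. A line was called trailing when the CPM + 1 of the next lowest line was at least 2-fold its own. Of the 31 measured members 9 had a trailing line, beside 11.5% of all measured genes and 9.12% of those in the members' range of totals, and in 7 of the 9 it was the DHRS2 line, which trailed 1.19% of all genes. Those 7 were HOXA5, HOXB3, HOXB4, HOXB5, HOXB6, HOXB7 and HOXB9, and the count was made after their values had been seen. HOXA5, HOXB4, HOXB5 and HOXB9 had no UMI in the DHRS2 line. With that line set at the floor of 3 UMIs, HOXB4 was 2.80-fold lower than the value of the next line, the GRIA4 line. That ratio leaves out the counting error of the GRIA4 value (2.61 CPM, 1.46 to 4.30). HOXA5, HOXB5 and HOXB9 came to less than 2-fold. In plain CPM, HOXB3 was 31.0-fold lower than in the next line (5.34 to 1249 from counting). HOXB6 was 9.96-fold lower (2.55 to 85.5) and HOXB7 7.04-fold (1.09 to 295). On the CPM + 1 scale these were 8.12-fold, 4.43-fold and 2.43-fold.

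How the barcodes were assigned mattered for this result. With lines taken from ATAC clusters 4 members were trailed by the DHRS2 line and its HOXB sum was 5.22 CPM. With lines taken from the marker UMIs of each barcode no member was trailed by it and its HOXB sum was 12.9 CPM, still the lowest of the 5. In that assignment 74 of the 84 HOXB UMIs of the DHRS2 line came from 48 barcodes with a median of 50846.5 UMIs. Their cluster had markers of several lines and no line name in the assignment used elsewhere. These 48 barcodes held 48.0% of all UMIs of the DHRS2 line in the marker assignment. Each had at least 5 marker UMIs, at least 70% of them from DHRS2 line markers. Whether these barcodes were mixed was not tested. With a pseudocount of 5 CPM the DHRS2 line trailed 1 member, and with a pseudocount of 0.1 CPM it trailed 14. The shares of all genes trailed by it under these alternatives were not computed.

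The HOXA cluster on chromosome 7 had most RNA in the GRIA4 line, at 57.4 CPM (51.4 to 63.9) over 11 genes. The RBFOX3 line followed at 44.7 CPM (38.8 to 51.2), then the S100A9 line at 27.6 CPM (24.0 to 31.7), the SLC30A8 line at 19.3 CPM (15.8 to 23.3) and the DHRS2 line at 7.46 CPM (4.78 to 11.1). The lowest 3 lines were separated by their intervals, and the GRIA4 and RBFOX3 intervals barely cleared each other. Much of this sum was HOXA3, a gene needed for the thymus and parathyroid, with 36.5 CPM in the GRIA4 line, 29.4 in the RBFOX3 line, 16.1 in the S100A9 line, 4.73 in the SLC30A8 line and 2.18 in the DHRS2 line. HOXA3 ranked the lines as the whole cluster did.

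Other HOXA genes were lower and ordered the lines differently. HOXA10, which acts in the uterus, was at 8.52 CPM in the GRIA4 line, 4.91 in the SLC30A8 line, 3.22 in the RBFOX3 line, 3.11 in the DHRS2 line and 0.137 in the S100A9 line, where it had 1 UMI. The S100A9 line, which trailed 3.14% of all genes, was thus the trailing line for HOXA10. It was 22.7-fold below the next in plain CPM (3.23 to 986 from counting) and 3.61-fold on the CPM + 1 scale. HOXA13, a gene of limb and genital development, was highest in that same line, at 3.83 CPM, with 2.15 in the RBFOX3 line, 1.82 in the SLC30A8 line, 1.24 in the DHRS2 line and 0.174 in the GRIA4 line. HOXA5, the airway gene, was at 3.48 CPM in the GRIA4 line, 3.22 in the RBFOX3 line, 2.18 in the SLC30A8 line and 1.51 in the S100A9 line, and these 4 intervals overlapped. HOXA2, HOXA4, HOXA6, HOXA7, HOXA9 and HOXA11 stayed at or below 2.26 CPM in every line.

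The HOXC cluster on chromosome 12 was spread over 3 lines that counting could not separate: 29.1 CPM (24.8 to 34.0) in the SLC30A8 line, 27.5 CPM (23.4 to 32.1) in the GRIA4 line and 26.7 CPM (21.4 to 33.0) in the DHRS2 line. The highest line was another one in 4 of 11 alternatives, and with totals without mitochondrial UMIs it was the GRIA4 line at 31.9 CPM. The RBFOX3 line was at 12.9 CPM (9.83 to 16.6) and the S100A9 line at 6.98 CPM (5.20 to 9.17). HOXC was the only cluster in which the DHRS2 line stood among the high lines, and 65.2% of its 132 HOX UMIs were HOXC, against 5.73% to 18.4% in the other 4 lines. No HOXC gene had a leading or trailing line. HOXC9, an axial patterning gene, was at 8.39 CPM in the DHRS2 line, 8.01 in the SLC30A8 line, 3.48 in the GRIA4 line, 3.01 in the RBFOX3 line and 1.78 in the S100A9 line. HOXC8 was at 7.77 CPM in the DHRS2 line and 1.5 CPM in the RBFOX3 line, with the others between. The DHRS2 line gave the highest value for HOXC4, HOXC6, HOXC8 and HOXC9, each with an interval that overlapped that of at least 1 other line. HOXC10, a gene of the hindlimb level, was instead highest in the GRIA4 line at 5.74 CPM, with 3.64 in the SLC30A8 line, and at or below 0.644 CPM in the remaining 3. HOXC11 had 4.0 CPM in the SLC30A8 line, 2.78 in the GRIA4 line, 1.07 in the RBFOX3 line and no UMI in the S100A9 and DHRS2 lines.

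The HOXD cluster on chromosome 2 had its RNA mainly in the SLC30A8 line. It summed to 84.6 CPM (77.1 to 92.7) in the SLC30A8 line, 20.7 CPM (17.5 to 24.2) in the S100A9 line, 11.0 CPM (8.16 to 14.4) in the RBFOX3 line, 5.59 CPM (3.32 to 8.84) in the DHRS2 line and 1.39 CPM (0.601 to 2.74) in the GRIA4 line. The GRIA4 line, which was the highest for HOXA, held 8 HOXD UMIs, and its value was 1.64% of that in the SLC30A8 line. Only the RBFOX3 and DHRS2 intervals overlapped among neighbours in this order.

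HOXD10 (ENSG00000128710, chr2:176116579), a gene of the lumbar spinal cord and hindlimb, carried most of the SLC30A8 value. It was at 60.4 CPM (54.1 to 67.3) in the SLC30A8 line, 2.15 CPM in the RBFOX3 line, 1.37 CPM in the S100A9 line, and had no UMI in the GRIA4 and DHRS2 lines, where 3 UMIs would be 0.522 and 0.932 CPM. The lower values were 3.55% and 2.26% of the highest. Line markers in other lines, pooled over markers and lines, had a 90th percentile of 3.49% and a highest value of 9.46%. As these markers named the lines, their values were partly set in advance. The 6 markers of the SLC30A8 line summed to 1095 CPM there, 20.2 CPM in the RBFOX3 line and 1.78 CPM in the S100A9 line. CPM + 1 in the SLC30A8 line was 19.5-fold that of the next line. The SLC30A8 line was made of 2 RNA clusters, and HOXD10 was at 57.8 CPM in 1 and 64.2 CPM in the other, with overlapping intervals. HOXD9 was at 11.1 CPM in the SLC30A8 line, 0.547 in the S100A9 line, 0.174 in the GRIA4 line and 0 in the RBFOX3 and DHRS2 lines. HOXD11 was at 7.83 CPM in the SLC30A8 line, 0.958 in the S100A9 line, 0.430 in the RBFOX3 line and 0 in the remaining 2.

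On the anterior side, HOXD1, HOXD3 and HOXD4 were highest in the S100A9 line and not in the SLC30A8 line. HOXD1 was at 5.06 CPM in the S100A9 line, 0.430 in the RBFOX3 line, 0.174 in the GRIA4 line and 0 in the SLC30A8 and DHRS2 lines, which left the S100A9 line leading at 4.24-fold. HOXD3 was at 8.21 CPM in the S100A9 line, 4.55 in the SLC30A8 line, 4.30 in the RBFOX3 line, 3.42 in the DHRS2 line and 0.696 in the GRIA4 line, which trailed (it trailed 1.71% of all genes). For HOXD3 the S100A9 interval (6.26 to 10.6) overlapped those of the SLC30A8 line (2.94 to 6.72) and the RBFOX3 line (2.62 to 6.63). HOXD4 was also highest in the S100A9 line, at 2.60 CPM. All 9 UMIs of HOXD13, the most posterior member and a gene of digit formation, were in the S100A9 line. HOXD8 was at 3.22 CPM in the RBFOX3 line and at or below 0.684 CPM elsewhere.

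Grouped by paralog position, the lines differed in which end of the clusters gave their HOX RNA. Posterior members (groups 9 to 13) made up 65.8% (62.6 to 68.9, exact binomial) of HOX UMIs in the SLC30A8 line, 34.1% (26.1 to 42.8) in the DHRS2 line, 18.4% in the GRIA4 line, 17.8% in the S100A9 line and 11.0% in the RBFOX3 line. HOXD10 alone was 36.5% of HOX UMIs in the SLC30A8 line, and without it the posterior share there was 46.2% (42.1 to 50.4). Anterior members (groups 1 to 3) made up 50.3% in the S100A9 line, 45.1% in the GRIA4 line, 41.8% in the RBFOX3 line, 14.4% in the DHRS2 line and 14.2% in the SLC30A8 line. HOXA3 and HOXB3 gave most of the anterior UMIs in those first 3 lines. Their UMIs were 118 and 156 of 381 in the S100A9 line, 210 and 76 of 388 in the GRIA4 line, and 137 and 218 of 438 in the RBFOX3 line. The S100A9, GRIA4 and RBFOX3 lines thus drew most on anterior and central genes, the SLC30A8 line on posterior ones, and the DHRS2 line on central ones (51.5%).

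**Figure D2:**
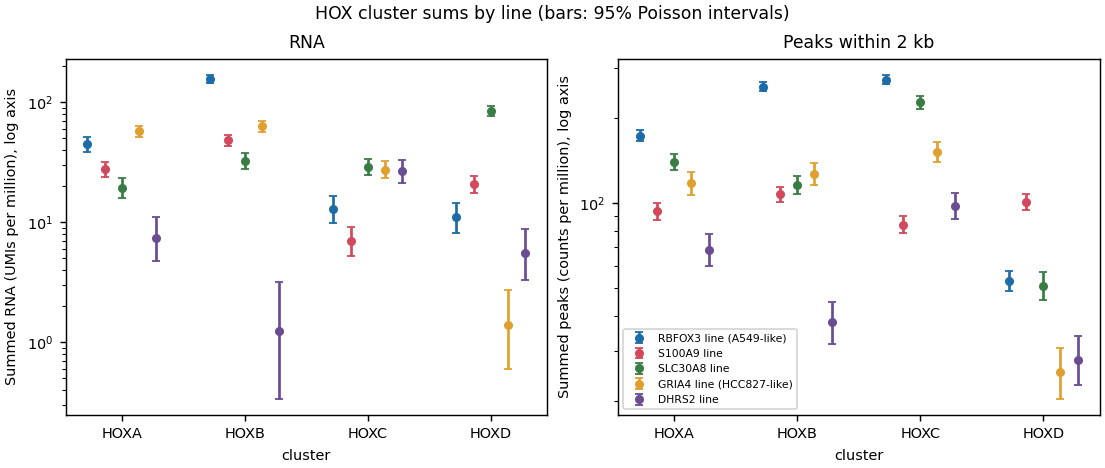
Summed RNA (left) and summed peak counts (right) of each HOX cluster in the 5 lines, in CPM on log axes, with 95% Poisson intervals as bars. The HOXB sum runs from 1.24 CPM in the DHRS2 line to 156 CPM in the RBFOX3 line, and the HOXD sum from 1.39 CPM in the GRIA4 line to 84.6 CPM in the SLC30A8 line.

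How evenly barcodes shared the UMIs was read against a Poisson spread. HOXB UMIs were found in 53.5% of RBFOX3 barcodes, where a Poisson spread of the same UMIs over barcodes by depth gives 53.3%, and HOXD10 in 39.7% of SLC30A8 barcodes against 39.2%. HOXB was found in 44.3% (39.5 to 49.1) of S100A9 barcodes against 48.9%. HOXA was found in 44.3% (39.5 to 49.2) of GRIA4 barcodes against 48.4%. Both shares were lower than the Poisson value, but their intervals held it. A share of barcodes with a UMI does not show how many UMIs single barcodes held. In the RBFOX3 line 1 barcode held 18 HOXB UMIs, and the top 10 barcodes held 10.6% of them. Of the 60 HOXC UMIs of the RBFOX3 line 8 were in 1 barcode, and 36.7% were in the top 10 barcodes. Median depth ranged from 4465.5 UMIs in the RBFOX3 line to 12625 in the S100A9 line, so barcodes were also thinned to 3000 UMIs each. This left out 143 barcodes of the RBFOX3 line, 28 of the SLC30A8 line, 23 of the GRIA4 line, 6 of the DHRS2 line and 5 of the S100A9 line. A HOXB UMI was then found in 36.6% of RBFOX3 barcodes, 17.0% of GRIA4 barcodes, 13% of S100A9 barcodes, 10.0% of SLC30A8 barcodes and 0.452% of DHRS2 barcodes (44.3% in S100A9, 49.1% in GRIA4, 24.1% in SLC30A8 and 1.76% in DHRS2 barcodes unthinned). The order of the lines was that of the CPM. HOXD10 had a UMI in 19.5% of thinned SLC30A8 barcodes and at most 0.501% in any other line, and 0 of 422 unthinned GRIA4 barcodes had one, which allows a share of barcodes with a UMI of up to 0.711% (3 counts of the total) and does not limit expression below that depth.

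**Figure D3:**
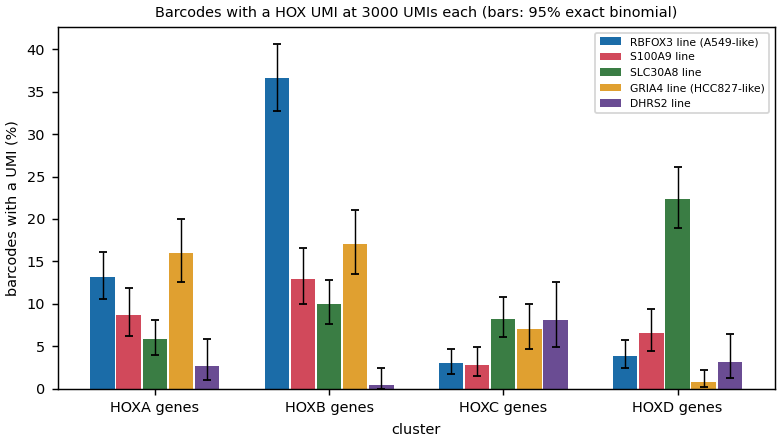
Share of barcodes (vertical axis, %) with at least 1 UMI of a HOXA, HOXB, HOXC or HOXD gene after thinning each barcode to 3000 UMIs, in the 5 lines, with 95% exact binomial intervals. HOXB reaches 36.6% in the RBFOX3 line and 0.452% in the DHRS2 line, and HOXD reaches 22.4% in the SLC30A8 line.

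Chromatin at the clusters was read from the 60 peaks, of which 9 lay near more than 1 member. HOXA2, HOXA6, HOXB1, HOXD8 and HOXD9 had no peak within 2 kb. Of the 54 peaks with at least 100 counts, 14 had a leading line, beside 21.1% of all 98477 measured peaks and 16.9% of peaks within 2 kb of any gene. The RBFOX3 line led 8 of them (4.15% of all peaks and 3.51% of those near genes), the S100A9 line 3 (5.83% and 4.57%) and the SLC30A8 line 3 (3.78% and 3.27%). The GRIA4 and DHRS2 lines led none, beside 3.18% and 4.16% of all peaks. A trailing line was found for 9 peaks, beside 10.3% of all peaks and 10.4% of those near genes. In 6 of the 9 it was the DHRS2 line (1.34% and 2.06%), in 2 the S100A9 line (1.13% of all peaks) and in 1 the SLC30A8 line (2.83%). With counts reduced to 1 per barcode and peak, 7 of the 43 HOX peaks then measured had a leading line, beside 13.3% of all peaks.

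**Figure D4:**
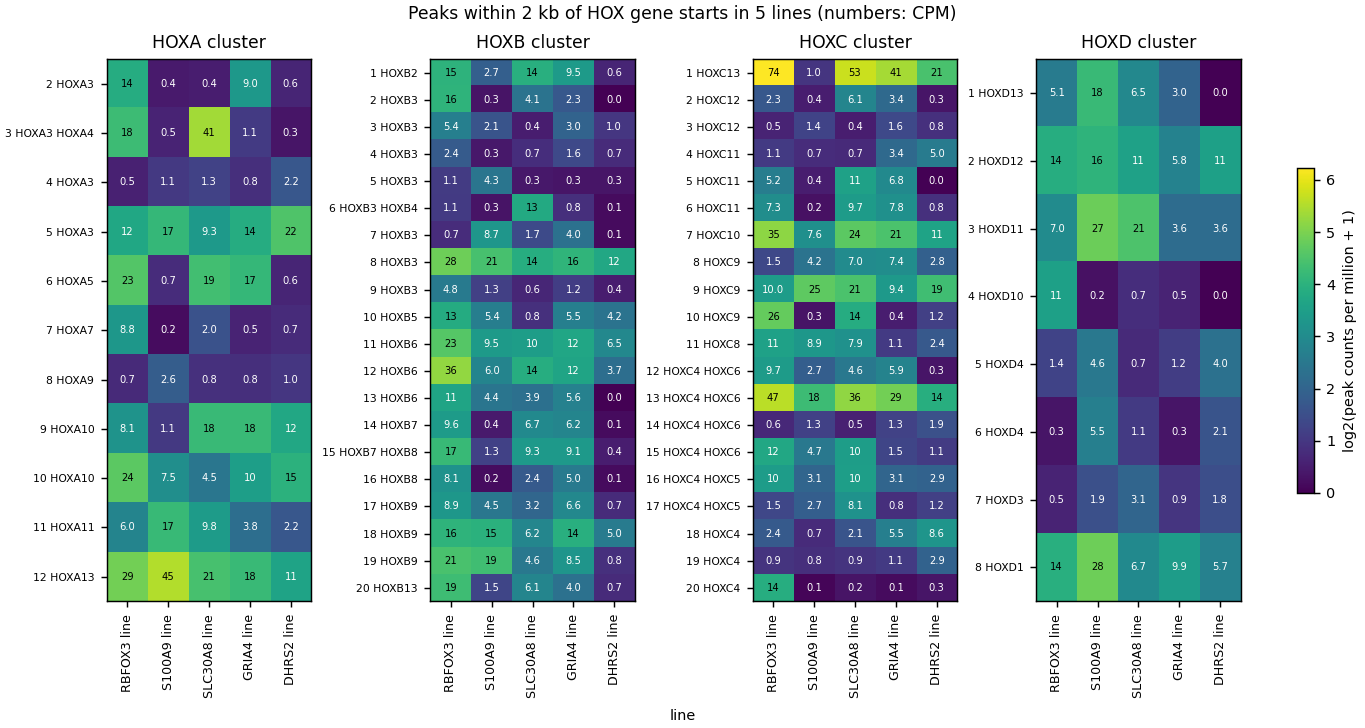
Level (CPM) of the HOX peaks, 1 peak left out (vertical axis, numbered along the chromosome within each cluster and named by the nearby genes) in the 5 lines, with colour on a log2(CPM + 1) scale. Most peaks have signal in several lines, and single bright cells mark peaks of 1 line such as HOXD10 at 10.7 CPM in the RBFOX3 line.

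Peak sums did not follow the RNA sums in every cluster. Over the 20 HOXB peaks the RBFOX3 line had 257 CPM (248 to 267) and the DHRS2 line 37.9 CPM (31.8 to 44.8), the same extremes as in RNA, with the GRIA4 line at 127, the SLC30A8 line at 116 and the S100A9 line at 107. Over the 20 HOXC peaks the RBFOX3 line was highest at 273 CPM (263 to 283), although its HOXC RNA was below that of 3 other lines. The SLC30A8 line followed at 227, the GRIA4 line at 152, the DHRS2 line at 97.9 and the S100A9 line at 84.0 CPM. Over the 12 HOXA peaks the RBFOX3 line was again highest at 173 CPM (165 to 181), followed by the SLC30A8 line at 140, the GRIA4 line at 117, the S100A9 line at 93.4 and the DHRS2 line at 68.4 CPM. Over the 8 HOXD peaks the S100A9 line was highest at 101 CPM (94.9 to 108), and the SLC30A8 line, which was highest in HOXD RNA, had 51.0 CPM (45.5 to 57.0), an interval that overlapped that of the RBFOX3 line at 53.0 CPM. The DHRS2 line at 27.9 CPM and the GRIA4 line at 25.2 CPM closed this order with overlapping intervals.

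Copy number was not analysed here, and signal around the clusters differed between lines. Peaks within 5 Mb of the HOXB cluster, the cluster left out, stood at 1.43 times the mean of the 5 lines in the RBFOX3 line and at 0.837 in the DHRS2 line, and RNA of the genes there at 1.44 and 0.888 times. Around HOXD the SLC30A8 line had 1.19 times the mean in peaks and 1.35 times in RNA. Around HOXA the order was another one, with the RBFOX3 line, highest in HOXA peaks, at 0.732 times in peaks and the DHRS2 line, lowest in HOXA, at 1.27 times in peaks and 1.21 times in RNA. Around HOXC the SLC30A8 line stood at 0.781 times in peaks and 0.785 times in RNA, and the RBFOX3 line at 1.19 times in peaks. The GRIA4 line was highest there, at 1.27 times in peaks and 1.20 times in RNA. The part of these flanking levels in the HOX values was not tested.

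The peaks that differed most between lines lay next to genes of every cluster. At HOXA4 (chr7:27130503-27131308, near HOXA3 as well) the SLC30A8 line had 40.6 CPM, the RBFOX3 line 18.3, the GRIA4 line 1.07, the S100A9 line 0.530 and the DHRS2 line 0.278. At HOXA7 (chr7:27156192-27156825) the RBFOX3 line had 8.83 CPM, the SLC30A8 line 1.99 and the others at most 0.694. The promoters printed above for HOXA4 and HOXA7 thus lay under peaks that were at or near the floor of 3 fragments in the S100A9, GRIA4 and DHRS2 lines (0.318, 0.805 and 0.833 CPM). RNA of both genes was too low to compare, with at most 1.27 CPM for HOXA4 and 0.644 CPM for HOXA7.

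In HOXB, a peak at HOXB3 (chr17:48555098-48555997) had 15.6 CPM in the RBFOX3 line, 4.15 in the SLC30A8 line, 2.28 in the GRIA4 line, 0.265 in the S100A9 line and 0 in the DHRS2 line. The S100A9 line, second for HOXB3 RNA, had almost no signal at this peak, and led another HOXB3 peak (chr17:48564020-48564918) at 4.35 CPM against 1.13 in the RBFOX3 line. The peak over the start of HOXB4 (chr17:48577951-48578882) had 12.9 CPM in the SLC30A8 line, 1.09 in the RBFOX3 line, 0.805 in the GRIA4 line, 0.265 in the S100A9 line and 0.139 in the DHRS2 line. The SLC30A8 line led this peak 6.68-fold, while HOXB4 RNA had overlapping intervals in 4 lines.

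In HOXC, the peak at the HOXC4 start with the highest coordinate (chr12:54053469-54054307) was found almost only in the RBFOX3 line, at 13.8 CPM, with at most 0.278 CPM elsewhere. CPM + 1 was 11.6-fold that of the next line. A peak near HOXC4 and HOXC5 (chr12:54033804-54034553) had 8.13 CPM in the SLC30A8 line, 2.65 in the S100A9 line, 1.49 in the RBFOX3 line, 1.25 in the DHRS2 line and 0.805 in the GRIA4 line. It covers the hairpin of miR-615, shown here because it is a microRNA gene inside a HOX peak, as RefSeq mature sequences 5′ to 3′ with the seed (bases 2 to 8) in capitals.
hsa-miR-615-5p: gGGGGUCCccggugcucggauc
hsa-miR-615-3p: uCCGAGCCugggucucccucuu
The level of these mature microRNAs was not analysed here. At HOXC13, a gene of hair and nail, the peak (chr12:53938203-53939086) had 74.5 CPM in the RBFOX3 line, 52.7 in the SLC30A8 line, 40.9 in the GRIA4 line, 21.0 in the DHRS2 line and 0.954 in the S100A9 line, which trailed 11.2-fold on the CPM + 1 scale. HOXC13 RNA had no UMI in the S100A9 line, where 3 UMIs would be 0.410 CPM, and reached 2.91 CPM in the SLC30A8 line and 2.15 CPM in the RBFOX3 line.

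In HOXD, the peak at HOXD13 (chr2:176092615-176093470) had 17.7 CPM in the S100A9 line, 6.47 in the SLC30A8 line, 5.07 in the RBFOX3 line, 2.95 in the GRIA4 line and 0 in the DHRS2 line, and the S100A9 line was also the line with the HOXD13 UMIs. The peak at HOXD10 (chr2:176116103-176116952) had a different highest line from its RNA. It had 10.7 CPM (8.84 to 12.8) in the RBFOX3 line, 0.746 (0.224 to 1.82) in the SLC30A8 line, 0.537 in the GRIA4 line, 0.212 in the S100A9 line and 0 in the DHRS2 line. The line with 60.4 CPM of HOXD10 RNA thus had 9 counts in this peak, which covers the HOXD10 promoter printed above, and the line with most signal there had 2.15 CPM of RNA. At HOXD11 (chr2:176106523-176107440) the S100A9 line had 27.5 CPM and the SLC30A8 line 21.4, with 7.02 in the RBFOX3 line, 3.62 in the GRIA4 line and 3.61 in the DHRS2 line. The peak intervals of the S100A9 line (24.2 to 31.0) and the SLC30A8 line (17.9 to 25.4) overlapped. HOXD11 RNA was 0.958 CPM in the S100A9 line and 7.83 CPM in the SLC30A8 line.

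**Figure D5:**
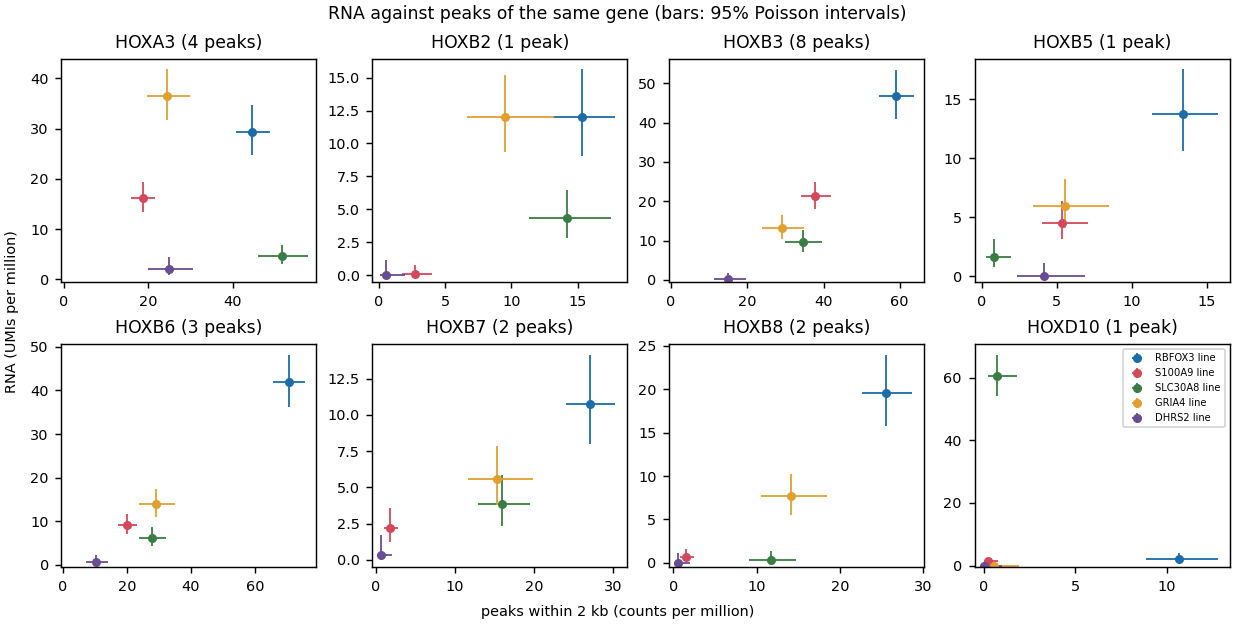
RNA (vertical axis, CPM) against the summed peaks within 2 kb (horizontal axis, CPM) for the 8 members with a peak that reached 10 CPM of RNA in a line, one point per line with 95% Poisson intervals. The RBFOX3 line lies at the upper right for HOXB3, HOXB5, HOXB6, HOXB7 and HOXB8, and for HOXD10 the SLC30A8 line (60.4 CPM of RNA) and the RBFOX3 line (10.7 CPM of peak) lie on opposite axes.

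For 27 members with RNA and a peak, the line with the highest RNA was set beside the line with the highest summed peaks. It was the same line for 13 of the 27, beside 47.9% of all 17580 such genes, so the members as a whole stood at the background. The clusters differed: all 8 HOXB genes compared had the same highest line in both, against 2 of 7 in HOXA, 1 of 7 in HOXC and 2 of 5 in HOXD. For HOXB this line was the RBFOX3 line except at HOXB4, and the flanking signal given above was also highest in that line. For HOXB2, HOXB4 and HOXB9 the RNA interval of the highest line overlapped that of another line, so 3 of the 8 matches rest on a highest line that counting does not settle. HOXA3 and HOXA4, HOXB3 and HOXB4, HOXB7 and HOXB8, and HOXC4, HOXC5 and HOXC6 share peaks, so these genes are not separate readings. As a description, the median rank correlation of RNA and peaks over the 5 lines was 0.87 for the 27 members and 0.60 for all genes. The correlation was positive for 21 of the 27 members and for 14224 of the 17580 genes. Each rests on 5 points that share a library and a depth within each gene.

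Genes that act with the clusters were counted in the same way, list by list. Of all measured genes 21.1% had a leading line and 11.5% a trailing one. None of the 8 measured cofactors of the PBX, MEIS and PKNOX families had a leading line, and 3 had a trailing one. MEIS3 was at 50.6 CPM in the SLC30A8 line, 40.4 in the RBFOX3 line, 5.59 in the DHRS2 line, 2.87 in the S100A9 line and 0.348 in the GRIA4 line, which trailed. Of 24 Polycomb genes 2 had a leading line: PCGF5 at 126 CPM in the RBFOX3 line, 2.48-fold the next line, and BMI1 at 36.4 CPM in the SLC30A8 line against at most 16.8 CPM. None of 14 genes of MLL complexes and related chromatin factors, DOT1L and KDM6B among them, had a leading line. Neither had the 2 measured upstream regulators, GMNN and CTCF. Of 14 measured genes of retinoic acid handling 4 had a leading line and 4 a trailing one. ALDH1A1, which makes retinoic acid and is also one of the A549 markers, was at 2817 CPM in the RBFOX3 line and at most 13.5 CPM elsewhere. RARB, a retinoic acid receptor, was at 135 CPM in the RBFOX3 line against at most 18.6 CPM, and CRABP2, which carries retinoic acid inside the cell, at 65.7 CPM in the S100A9 line against at most 18.6 CPM.

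Neighbouring and antisense genes of the clusters had a leading line in 6 of 20 measured cases, beside 21.1% of all measured genes. TTLL6, beside HOXB, was at 47.9 CPM in the RBFOX3 line and at most 0.621 CPM elsewhere. HOTAIRM1, a long non-coding RNA of the HOXA cluster, was at 84.3 CPM in the GRIA4 line, 19.5 in the RBFOX3 line, 5.82 in the SLC30A8 line, 0.821 in the S100A9 line and 0.311 in the DHRS2 line, with the GRIA4 line leading. HOXB-AS3 was at 15 CPM in the RBFOX3 line and at most 4.55 CPM elsewhere. Whether counting used strand is not given in the sources used here, so reads of HOX genes and of their antisense partners cannot be told apart.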

How the data were processed

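RNA and open chromatin were measured under the same barcodes by 10x multiome. Per the submitters' processing notes, Cell Ranger ARC 2.0.0 and the build GRCh38 were used, and per the labels the RNA was sequenced in 2 runs. The deposited matrix holds raw counts per barcode: UMIs per gene and counts per ATAC peak, with 62477861 UMIs and 131221183 peak counts over 3298 barcodes. Of the peak entries 83.3% were even, so peak intervals were computed on counts divided by 2. How counting treated strand is not given in the sources used here.

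Barcodes with at least 1000 UMIs, 500 genes and 1000 peak counts and at most 20% mitochondrial UMIs were kept (2804). The 63 highest doublet scores of Scrublet were removed (0.8% per 1000 barcodes), since its automatic threshold called 1 barcode. Clustering used scanpy 1.11.5 (2000 variable genes, 30 components, 20 neighbours, Leiden resolution 0.3), with HOX genes and 100 kb around them left out, and gave 7 clusters. A cluster took a line's name at a marker score of at least 0.4. The 260 barcodes of 1 cluster stayed unnamed, and 84 barcodes with at least 3 UMIs and over 30% of their marker UMIs from another line were removed.

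Counts were summed per line and given as CPM with exact Poisson intervals (95%, scipy 1.17.1), and shares with Clopper-Pearson intervals. Intervals and floors cover counting error only. A ratio between lines is on the CPM + 1 scale, which understates changes of low genes. A gene counted as measured from 20 UMIs over the 5 lines, a peak from 100 counts. The scripts were tested on simulated data. TMM factors came from edgeR 4.0.16.

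Members at 10 CPM or more in a line, and the 2 peaks per cluster with the largest ratio of the highest line to the next, are given with all values, and other members named were chosen after their values were seen. The members, gene lists and line markers were chosen with earlier results of these data known. The clustering resolution (among 4 tried), the naming and mixing thresholds, the trailing lines, the thinning, the flanks, the motifs, the split of RNA and peak order by cluster and the share without HOXD10 were also chosen after the data were seen. The values of 1 member and of some genes of the pathway lists are not reported here, though counts and sums include them.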

Additional observations from a re-analysis of the deposited data

How the results depend on the processing

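Of the counts of HOX genes and HOX peaks with a leading line and of genes with the same highest line in RNA and peaks, 40 recomputed values stayed within 1.5 times the reported one. The exceptions were these. A pseudocount of 5 CPM left 4 genes and 6 peaks with a leading line, beside 13.6% of all genes and 8.92% of all peaks. A 4-fold threshold left 4 genes and 3 peaks, beside 6.86% and 5.28%. HOXD9, HOXD10 and HOXD11 were among the genes under both. Requiring at least 100 UMIs left 5 of 13 measured genes with a leading line, beside 19.3% of all genes, and 6 of 13 with the same highest line. Counting each peak once per barcode left 7 of 43 peaks, beside 13.3%. A mitochondrial limit of 10% gave 8 of the 25 genes then measured, beside 20.4% of all genes. HOXB5 and HOXD8 were among those lost, and HOXC10 was gained. Clustering at resolutions 0.1, 0.6 and 1, added after the data were seen, gave 10 genes each, beside 20.6%, 21.3% and 21.0% of all genes. The highest and lowest lines of the HOXA, HOXB and HOXD RNA sums were the same in 11 of 11 alternatives, the highest line of the HOXC RNA sum in 7 of 11, and the lowest line of the HOXD peak sum in 10 of 12. Totals without mitochondrial UMIs, also added, gave 9 genes, without HOXB5, beside 20.85% of all genes. Of the recomputed counts of members led or trailed by each line and of the cluster sums, 133 moved beyond 1.5 times or their interval and 679 did not. Values of single genes and single peaks were not recomputed. The cause of these shifts was not tested. No paired analysis was possible because each line is 1 culture in 1 library of each kind. Depth limits the 30 members under 10 CPM in all lines.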

Other observations

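The 260 barcodes of the unnamed cluster, with a median of 51941.5 UMIs, held HOX RNA of every cluster: 18.8 CPM of HOXA, 37.4 CPM of HOXB, 16.1 CPM of HOXC and 11.9 CPM of HOXD. HOXD10 was at 3.32 CPM there. Its best marker scores were 0.308 for the DHRS2 line and 0.286 for the S100A9 line, on a scale where 1 is the highest cluster. These barcodes entered no comparison between lines.

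Among genes beside the clusters, HAGLR, which is transcribed next to HOXD1, was at 8.48 CPM in the S100A9 line, 2.58 in the RBFOX3 line, 2.18 in the DHRS2 line, 2.09 in the GRIA4 line and 0 in the SLC30A8 line. HOXD1 was likewise highest in the S100A9 line and without a UMI in the SLC30A8 line. HOXA-AS2 was at 24.8 CPM in the S100A9 line, 21.6 in the GRIA4 line, 21.3 in the RBFOX3 line, 2.73 in the SLC30A8 line and 0 in the DHRS2 line.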
